A study of Mus musculus with 48 samples.

Results

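The cytosolic ribosome is built from ribosomal RNAs and a family of ribosomal proteins, named Rps for the small subunit and Rpl for the large subunit. Its gene rows were taken from the deposited table of 23732 genes by symbol (Rps or Rpl with a number, Rplp0 to Rplp2, and Rpsa) and by a mean of at least 10 counts over all libraries. This gave 77 genes, of which 32 encode small-subunit proteins, 42 large-subunit proteins and 3 proteins of the stalk, the arm of the large subunit that recruits translation factors. The symbol pattern also matched Rpl3l and Rpl39l, whose means of 1.42 and 1.52 counts fell under the minimum, whereas the lowest mean among the 77 was 2720 counts (Rps28) and the highest 24180 (Rpl4). All 77 passed the filter on low counts that the tests used.

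Cells need ribosomal proteins in matched amounts, and their mRNAs are abundant, short and held in step. Most begin with a cytosine followed by a run of pyrimidines, the 5′ terminal oligopyrimidine (TOP) sequence, through which the kinase mTORC1 and the protein LARP1 control how much they are translated. In mouse liver, the translation and the supply of ribosomal protein mRNAs are known to follow feeding and the circadian clock. BMAL1 is the clock's transcriptional activator and binds DNA together with CLOCK.

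The livers of 48 male C57BL/6 mice aged 4 to 6 months gave 48 poly-A RNA libraries, 24 KO and 24 WT, with 4 mice of each genotype at ZT0, ZT4, ZT8, ZT12, ZT16 and ZT20. KO mice carried Bmal1f/f alleles and EsrCre, a Cre recombinase expressed throughout the body that tamoxifen switches on. The mice labelled WT were Cre-negative Bmal1f/f littermates, so Cre itself and the loss of Bmal1 cannot be told apart. All mice had 5 mg of tamoxifen by gavage on each of 5 days and, 7 days later, spent 36 h in constant darkness before collection. The comparison asks how these mRNAs stand with and without BMAL1, at each time and over the day.

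Levels are in CPM, the counts scaled to library size, with TMM factors that put libraries on a common scale. A difference is a log2 fold change, KO over WT, with its standard error (SE). It was called where edgeR's quasi-likelihood test gave a Benjamini-Hochberg adjusted p under 0.05 over all 14836 genes tested. Library totals ran from 33562272 to 34035644 counts, so nearly equal that they do not show how deeply each library was read. The Arntl row, which is Bmal1, held 4.60 to 25.6 CPM in KO mice and 0.979 to 47.8 CPM in WT mice. KO means lay between 10.1 and 17.9 CPM at every time, while WT means ran from 1.35 CPM at ZT8 to 43.9 CPM at ZT20, and the row counts the whole gene, not the deleted stretch alone. Summed markers of hepatocytes stood at 29199 to 51399 CPM in KO livers and 28036 to 39726 CPM in WT livers. The libraries are of bulk tissue, so fewer cells of a type and less RNA per cell cannot be told apart.

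One KO library, mouse 21 of ZT12, stood apart in the family and in its trend with transcript length. It had the highest CPM of all 48 libraries for 77 of the 77 genes, at 1.33 to 2.22 times (median 1.75) the median of the other KO mice of ZT12. Taken over genes outside the family, the slope of a library's deviation from each gene's mean log2 level on log2 transcript length was -0.30 in this library and -0.08 to 0.13 in the other 47. A negative slope means that short transcripts stand high. The main counts, and some values of ZT12 and of KO that rest on it, are given with and without it. Values for which nothing is said include it.

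Promoter windows of 6 members are shown because they span the range of change described below: the marker genes Rpl4 and Rpl39, the members with the largest average change that have a RefSeq promoter (Rpl12 and Rps3a), and those with the smallest (Rps27l and Rps21). Each runs from 100 bases before to 20 bases from the annotated start, 5′ to 3′ on the gene's strand, from RefSeq on GRCm38.p6. Capitals mark runs of at least 8 consecutive C or T and the letters CCGGAA or their reverse complement TTCCGG, the core bound by ETS-family factors.
Rpl4 (chr9:64173287-64173406, plus strand): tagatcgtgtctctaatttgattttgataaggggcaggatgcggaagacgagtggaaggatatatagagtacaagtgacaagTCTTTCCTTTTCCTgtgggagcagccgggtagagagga
Rpl39 (chrX:37085203-37085322, minus strand): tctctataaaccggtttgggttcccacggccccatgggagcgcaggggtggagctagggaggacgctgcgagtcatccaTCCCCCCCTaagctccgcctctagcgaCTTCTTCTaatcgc
Rpl12 (chr2:32961612-32961731, plus strand): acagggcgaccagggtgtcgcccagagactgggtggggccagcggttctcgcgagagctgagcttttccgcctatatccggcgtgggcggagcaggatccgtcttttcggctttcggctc
Rps3a (chr3:86142649-86142768, minus strand): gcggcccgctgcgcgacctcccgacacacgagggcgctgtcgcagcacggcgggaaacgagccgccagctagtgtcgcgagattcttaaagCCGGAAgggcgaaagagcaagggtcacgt
Rps27l (chr9:66945986-66946105, plus strand): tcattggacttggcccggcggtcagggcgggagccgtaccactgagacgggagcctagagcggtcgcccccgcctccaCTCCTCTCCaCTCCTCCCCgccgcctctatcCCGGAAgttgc
Rps21 (chr2:180257279-180257398, plus strand): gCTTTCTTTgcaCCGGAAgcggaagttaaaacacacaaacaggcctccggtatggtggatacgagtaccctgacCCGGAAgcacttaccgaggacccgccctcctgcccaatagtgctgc

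RefSeq promoters of 300 bases were found for 57 of the 77 members. A pyrimidine run of at least 8 bases on the gene's strand, within 50 bases of the annotated start, was present in 48 of these 57 genes (84.2%). Of all 27025 genes with a promoter in the table, 39.3% had one. A run in this window is not a TOP start. Annotated transcripts that themselves begin with a cytosine and a pyrimidine run were found for 11 of the 77 members (14.3%), against 2.37% of coding genes. The letters CCGGAA, on either strand anywhere in the 300 bases, were present in 32 of 57 (56.1%), against 16.7% of all genes. ATGGCG, the core of the YY1 motif, was present in 16 of 57 (28.1%), against 10.2%. CACGTG, the E-box that BMAL1 and CLOCK bind, was present in 6 of 57 (10.5%), against 8.09% of all genes. In the averaged comparison below, described with no test, the median log2 fold change was 0.14 for the 6 members with CACGTG (2 called) and 0.15 for the 51 without it (28 called). It was 0.14 for the 16 with ATGGCG (4 called) and 0.16 for the 41 without it (26 called). With CCGGAA 16 of 32 were called and without it 14 of 25, and with a pyrimidine run 25 of 48 were called and without one 5 of 9. These matches describe letters in a window and say nothing of binding.

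Averaged over 6 times, ribosomal protein mRNAs stood higher in KO livers than in WT livers across both subunits. All 77 log2 fold changes were positive, with a median of 0.15, a level 10.9% higher in KO. Of the 77, 42 rose in KO livers by the test and 0 fell, where 4.94% of all genes tested were called higher, 3.92% were called lower and 50.4% had a positive value around a median of 0.00. The small subunit had 17 of 32 genes called (median 0.15) and the large subunit with the stalk 25 of 45 (median 0.15). Without mouse 21 the median was 0.11, 76 of 77 values were positive and 36 genes were called, all of them among the 42. In that fit 4.51% of all genes were called higher. Rps10, Rps9, Rpl11 and Rpl30 were among the 6 that dropped out. With the ZT12 libraries left out altogether, the average over the other 5 times had 38 genes called higher. The share over all genes was not counted for that fit.

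**Figure D1:**
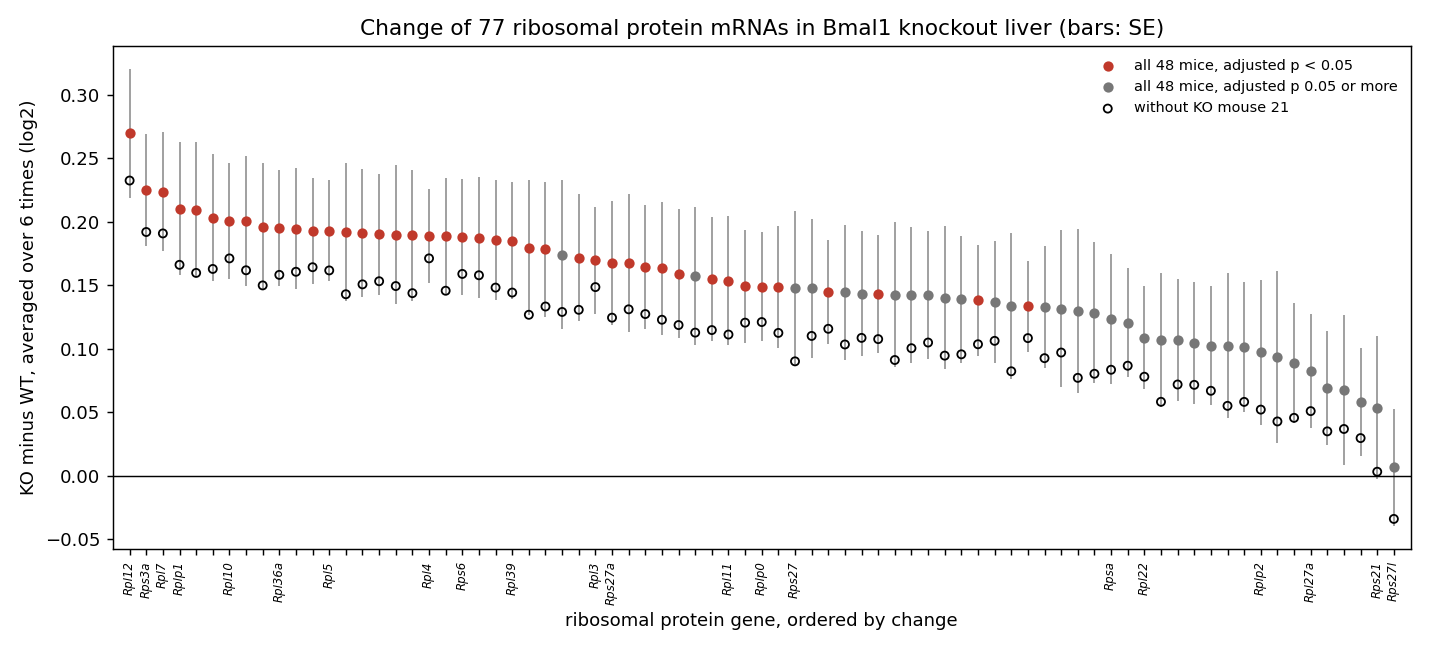
Log2 fold change of each of the 77 genes (y axis, KO minus WT averaged over 6 times, bars SE), ordered by size, with some of the genes described in the text labelled; filled points use all 48 mice, red where adjusted p was under 0.05, and open circles leave out KO mouse 21. All filled points lie above 0, and leaving out mouse 21 lowers the median of 0.15 to 0.11 and takes Rps27l below 0.

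The largest change belonged to Rpl12, a protein at the base of the stalk. Rpl12 ran from 180 through a median of 235 to 427 CPM in 24 KO mice, against 161, 199 and 252 CPM in 24 WT mice. The ranges overlapped, and the KO median stood near the upper part of the WT range. Its log2 fold change was 0.27 ± 0.05 (SE, edgeR quasi-likelihood test, adjusted p = 0.000383), and 0.23 ± 0.04 without mouse 21 (adjusted p = 0.000211). Next came Rps3a of the small-subunit platform, with 299, 374 and 624 CPM as lowest, median and highest in KO mice, against 260, 328 and 396 CPM in WT mice. Its log2 fold change was 0.23 ± 0.04 (adjusted p = 0.000591).

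The marker genes of the family were all called. Rpl7, a large-subunit protein, had 302, 409 and 676 CPM as lowest, median and highest in KO mice, against 291, 357 and 428 CPM in WT mice. Its log2 fold change was 0.22 ± 0.05 (adjusted p = 0.00139). Rpl4, which lines the tunnel through which the new peptide leaves, averaged 765 ± 103 CPM in KO mice and 669 ± 55.7 CPM in WT mice (SD, n = 24 each), with a log2 fold change of 0.19 ± 0.04 by edgeR (adjusted p = 0.000622). Rpl39, a very small protein of the same tunnel, averaged 126 ± 26.3 CPM in KO mice and 110 ± 10.1 CPM in WT mice (SD, n = 24 each), with a log2 fold change of 0.19 ± 0.05 by edgeR (adjusted p = 0.00742). All of these calls remained without mouse 21, with adjusted p of 0.00113 for Rpl7, 0.000716 for Rpl4 and 0.00351 for Rpl39.

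Of the stalk proteins, the acidic Rplp1 and the Rplp0 that anchors it rose, with log2 fold changes of 0.21 ± 0.05 (edgeR, adjusted p = 0.00756) and 0.15 ± 0.04 (adjusted p = 0.0213). Their partner Rplp2 had 0.10 ± 0.06 (adjusted p = 0.314). Rplp1 reached 426 to 1029.6 CPM in KO mice, against 398 to 577 CPM in WT mice. Rpl5 and Rpl11, which carry the 5S ribosomal RNA and bind the p53 regulator MDM2 when free, had log2 fold changes of 0.19 ± 0.04 (adjusted p = 0.00119) and 0.15 ± 0.05 (adjusted p = 0.0493), and Rpl11 lost its call without mouse 21 (adjusted p = 0.0652). Rpl10, which joins the large subunit late in its assembly, had 0.20 ± 0.05 (adjusted p = 0.00317), and Rpl3, at the peptidyl transferase centre, 0.17 ± 0.04 (adjusted p = 0.00767).

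In the small subunit, Rps6, the substrate of S6 kinase, averaged 205 ± 36.1 CPM in KO mice and 180 ± 20.5 CPM in WT mice (SD, n = 24 each), with a log2 fold change of 0.19 ± 0.05 by edgeR (adjusted p = 0.0057). Rps27a, made as a fusion to ubiquitin, had 0.17 ± 0.05 (adjusted p = 0.0233). Rpsa, also known as the laminin receptor, had 0.12 ± 0.05 and was not called (adjusted p = 0.127). Fau, a fusion gene whose product holds Rps30, falls outside the symbol pattern; it had 0.09 and was not called.

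The smallest changes were in Rps27l, Rps21, Rps2, Rps16, Rpl29 and Rpl27a, none of them called. Rps27l, a paralog of Rps27 known as a p53 target, had 97.4, 114 and 211 CPM as lowest, median and highest in KO mice, against 91.9, 122 and 138 CPM in WT mice. Apart from mouse 21 the KO values of Rps27l lay at 139 CPM or below, and its log2 fold change was 0.01 ± 0.05 with all mice and -0.03 ± 0.03 without mouse 21 (edgeR, adjusted p = 0.95 and 0.597). Its parent gene Rps27 had 0.15 ± 0.06 (adjusted p = 0.122). Among paralogs outside the pattern, Rpl22l1 had 35.1 ± 6.36 CPM in KO mice and 29.5 ± 5.12 CPM in WT mice (SD, n = 24 each), with 0.25 by edgeR (adjusted p = 0.00056), beside 0.11 for Rpl22 itself (adjusted p = 0.0859).

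Body weight and housing moved with genotype or time and stand beside these counts. KO mice weighed 23 to 31 g (median 28) and WT mice 27 to 34 g (median 31). With body weight as a covariate, 20 of the 77 genes were called and the median stayed at 0.15. With the length trend of each library as a covariate, 24 were called and the median was 0.08, and with 4 libraries left out that earlier work on these data had found farthest from their groups (KO mice 20 and 21 of ZT12, and 43 and 44 of ZT0), 17 were called and the median was 0.08. Shares of all genes called were not counted with these covariates or without these 4 libraries. The smaller counts therefore cannot be set against a background. The cages of ZT4 and ZT8, of ZT12 and ZT16, and of ZT20 and ZT0 formed separate sets, each with both genotypes. Within the set of ZT4 and ZT8, 0 of 77 members were called by edgeR (median 0.07, 1 at an unadjusted p under 0.05, background 7.4% called higher); within that of ZT12 and ZT16, 10 (median 0.17, background 6.01%); and within that of ZT20 and ZT0, 12 (median 0.24, background 3.29%). Cage set and time of day cannot be told apart. Among the mice were 11 pairs of a KO and a WT mouse from 1 cage, unevenly spread over the times. In a fit to these pairs alone with the cage as a block, edgeR called 0 of 77 members, with 52 at an unadjusted p under 0.05, 76 positive values and a median of 0.22 (background 0.809% called higher). Without the cage of mouse 21 the 10 remaining pairs gave 0 called, 42 at an unadjusted p under 0.05 and a median of 0.15 (background 0.607% called higher). With so few genes called in either paired fit, 0 members lies near the background. Shares of all genes at an unadjusted p under 0.05 were not counted for these fits. Of 9 hepatocyte markers 3 were called higher (median 0.11), and the highest hepatocyte sum given above, 51399 CPM, was that of mouse 21. Among 11 endothelial, 10 T and NK cell and 7 neutrophil markers tested, 1 of each list was called lower. Of the 11 Kupffer cell markers tested, 0 were called by edgeR, but 9 had an unadjusted p under 0.05, where 22.7% of all genes did. Their log2 fold changes were positive for 9 markers and negative for 2 (median 0.19, lowest -0.21). Summed Kupffer cell markers stood at 831 to 2472 CPM in KO livers (the highest in mouse 21) and 1011 to 1919 CPM in WT livers. Summed B cell markers, of which 7 were tested, were also highest in mouse 21, at 198 to 614 CPM in KO livers and 187 to 403 CPM in WT livers. No marker of these lists was at 0 in all libraries. Their part in the result was not tested.

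The share of all counts that fell in the 77 genes gives the same comparison per mouse. It averaged 1.84% ± 0.28 in KO mice, from 1.57% to 2.95%, and 1.66% ± 0.12 in WT mice, from 1.48% to 1.94% (SD, n = 24 each). Without mouse 21 the KO mean was 1.79% ± 0.15 (SD, n = 23). At ZT12 the KO mice had 1.84%, 1.93%, 2.95% and 1.84%, against 1.81%, 1.94%, 1.66% and 1.75% in WT mice. Apart from mouse 21, the KO values of ZT12 lay within the WT range. At ZT8 the KO mice had 1.85%, 1.73%, 2.20% and 2.03%, against 1.59%, 1.69%, 1.55% and 1.71% in WT mice, and the groups did not overlap. At ZT20 the KO mice had 1.57%, 1.69%, 1.89% and 1.75%, against 1.57%, 1.56%, 1.48% and 1.48% in WT mice, and they overlapped only through the lowest KO mouse.

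**Figure D2:**
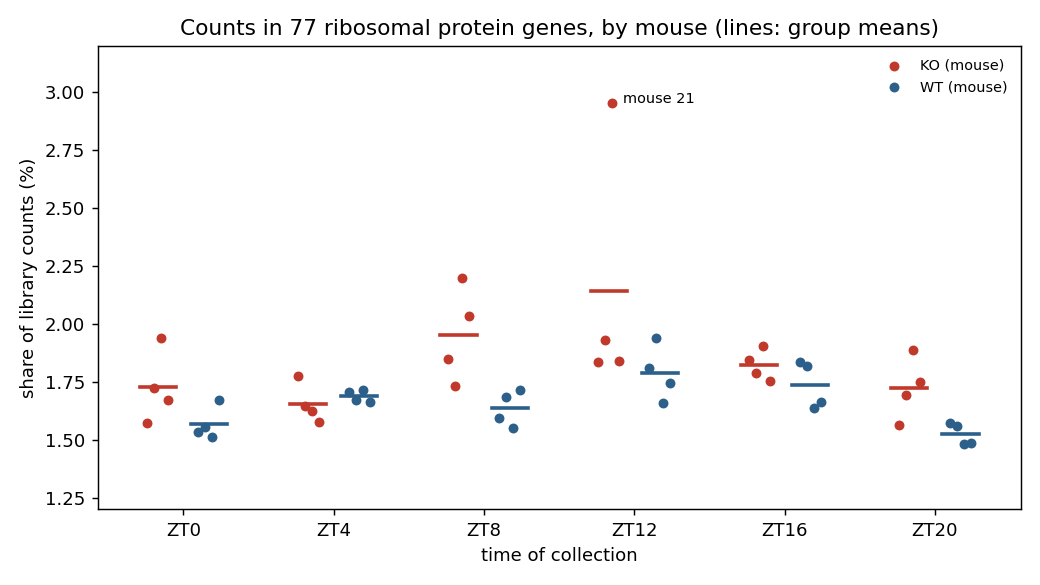
Share of each library's counts that fell in the 77 ribosomal protein genes (y axis, percent) by time of collection (x axis), with 1 point per mouse, KO left of WT, and lines at group means. Mouse 21 stands at 2.95%, above every other mouse, and the other 47 mice lie between 1.48% and 2.20%.

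The spread within groups was also wider among KO mice, described here with no test. The within-group SD of log2 CPM, taken per gene, had a median of 0.22 in KO and 0.10 in WT, and was larger in KO for 77 of 77 genes. Without mouse 21 the KO median was 0.16, and the SD was still larger in KO for 77 of 77. The genes move together, so these are not 77 separate observations. The SDs were not compared over all genes, so a wider spread in KO cannot be called particular to the family. Rps28 had the largest spread, with an SD of 0.31 in KO groups and 0.14 in WT groups, followed by Rpl36, Rpl28 and Rps27. Rpl15 and Rpl4 had the smallest, with SDs of 0.16 and 0.15 in KO groups and 0.07 and 0.08 in WT groups. By group, the SD of the share of counts was 0.54 percentage points in KO mice of ZT12, or 0.05 without mouse 21, against 0.12 in WT mice of ZT12. At ZT16 it was 0.07 in KO mice, the smaller of the pair, against 0.10 in WT mice.

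The median difference was not the same at each time of collection. The median log2 fold change of the 77 genes was 0.25 at ZT0 and 0.23 at ZT20. It was 0.20 at ZT8 and 0.33 at ZT12, and it was -0.09 at ZT4 and 0.01 at ZT16. At ZT0 77 of 77 values were positive, where 48.6% of all genes had a positive value, and at ZT4 only 7 were, where 49.5% of all genes did. Only Rpl7, Rplp1, Rpl10 and Rpl10a had positive values at all 6 times.

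At ZT12, 30 of the 77 genes were called higher and 0 lower, where 6.59% of all genes tested were called higher. Rpl39 had 133, 139, 230 and 129 CPM in the 4 KO mice, against 102, 122, 111 and 109 CPM in the 4 WT mice. Each KO mouse stood above each WT mouse, and mouse 21 stood far above the other KO mice. Its log2 fold change was 0.51 ± 0.11 (edgeR, adjusted p = 0.00226), and 0.26 ± 0.09 without mouse 21 (adjusted p = 0.0543). Rpl36a, a large-subunit protein near the exit site for transfer RNA, had 119, 119, 191 and 109 CPM in KO mice, against 91.8, 114, 95.3 and 92.3 CPM in WT mice, and 1 KO mouse lay below the highest WT mouse. Its log2 fold change was 0.45 ± 0.11 (edgeR, adjusted p = 0.00618), and 0.23 ± 0.09 without mouse 21 (adjusted p = 0.132). Rpl4 had 810, 931, 1074 and 769 CPM in KO mice, against 635, 748, 670 and 737 CPM in WT mice, with no overlap. For Rpl4 the log2 fold change was 0.36 ± 0.09 (edgeR, adjusted p = 0.00693), and 0.25 ± 0.09 without mouse 21 (adjusted p = 0.0713).

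Without mouse 21 the ZT12 difference shrank. The median fell to 0.10, 65 of 77 values were positive, and 0 genes were called by edgeR, with 5 at an unadjusted p under 0.05. Leaving out KO mouse 18 or 24 of ZT12 gave 51 or 59 genes called, and leaving out WT mouse 17, 22 or 23 left 6, 11 or 8. In 4 of the 77 genes every KO mouse of ZT12 stood above every WT mouse, with or without mouse 21, and this was not counted over all genes. Across all genes tested, 11.7% were called at ZT12 in either direction with mouse 21 included. Without it 7.67% were called in either direction and 4.19% were called higher. With mouse 21 included, values at ZT12 outside the family also ran with transcript length. The median log2 fold change was 0.16 for 1139 other genes with transcripts of 500 to 1000 bases and -0.12 for 3832 other genes over 4000 bases. For the 41 family members of 500 to 1000 bases it was 0.32. These medians were not computed without mouse 21, the library with the steepest length trend.

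At ZT8, 3 genes were called higher: Rpl12, Rpl36a and Rpl3. With all mice, the share of members called was close to the background of 3.78%, so these calls alone do not set the family apart. Rpl12 had 246, 217, 305 and 272 CPM in KO mice, against 181, 203, 176 and 208 CPM in WT mice, and the groups did not overlap. Its log2 fold change was 0.44 ± 0.12 (edgeR, adjusted p = 0.0233). Rpl3 had 414, 354, 443 and 452 CPM in KO mice, against 315, 381, 298 and 331 CPM in WT mice, with a log2 fold change of 0.33 ± 0.10 (edgeR, adjusted p = 0.0423). Here the lowest KO mouse lay below the highest WT mouse. Without mouse 21, which is no mouse of ZT8, 13 genes were called higher at ZT8, where 4.57% of all genes were. The median was nearly the same at 0.20, and the cause of that rise in calls was not tested. Leaving out KO mouse 14 or 15 or WT mouse 11 or 13 of ZT8 left 0 called, and leaving out KO mouse 9 or WT mouse 16 left 1.

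At ZT0 and at ZT20, 0 genes were called by edgeR, where 1.06% and 0.647% of all genes were called higher. The values were nearly all positive and 38 genes at ZT0 and 26 at ZT20 had an unadjusted p under 0.05 (17.1% and 13.2% of all genes did), and DESeq2 also called 0 at both times. Without KO mouse 41 of ZT0, 5 genes were called at ZT0, a fit in which the share of all genes called was not counted. Without mouse 21 there was 1 at ZT0 and 2 at ZT20, where 1.68% and 0.881% of all genes were called higher. Rpl10 at ZT0 had the smallest p, with 0.31 ± 0.11 (edgeR, adjusted p = 0.132), and Rps3a had 0.30 ± 0.11 (adjusted p = 0.132). At ZT20 Rpl5 had 0.29 ± 0.10 (adjusted p = 0.134) and Rpl17 0.35 ± 0.12 (adjusted p = 0.171). In 18 of 77 genes at ZT20 and 7 of 77 at ZT0, every KO mouse stood above every WT mouse. How often this occurred over all genes was not counted, and members move together, so these counts are descriptions only.

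At ZT4, 0 genes were called by edgeR in either direction and 0 had an unadjusted p under 0.05 (1.9% and 1.89% of all genes were called higher and lower), and the values leaned below 0. Rpl27a had 171, 154, 153 and 145 CPM in KO mice of ZT4, against 181, 186, 168 and 184 CPM in WT mice, a log2 fold change of -0.21 ± 0.11 (edgeR, adjusted p = 0.308), and the highest KO mouse lay within the WT range. In 6 of 77 genes every KO mouse of ZT4 lay below every WT mouse, and this was not counted over all genes. At ZT16, 0 genes were called by edgeR and 0 had an unadjusted p under 0.05 (2.6% of all genes were called higher), and the values lay on both sides of 0. Rpl7 had the smallest p there, with 0.18 ± 0.11 (adjusted p = 0.402).

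**Figure D3:**
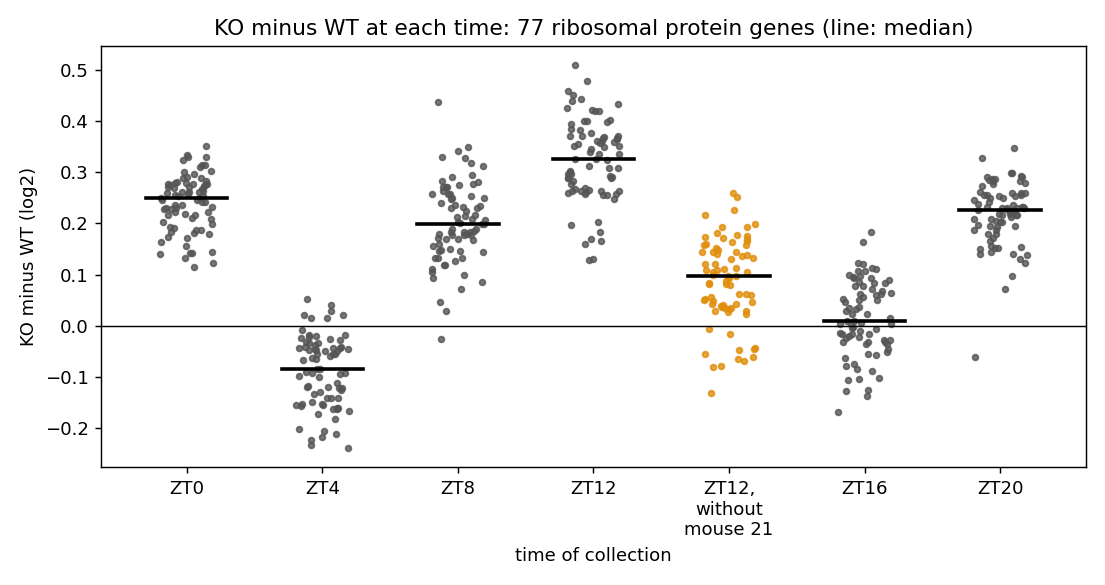
Log2 fold change, KO minus WT (y axis), of each of the 77 genes at each time of collection (x axis), with the median as a line; the orange points repeat ZT12 without mouse 21. Medians run from -0.09 at ZT4 to 0.33 at ZT12, and the ZT12 median is 0.10 without mouse 21.

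A test of whether the KO minus WT difference itself changed over the 6 times called 2 members, where 20.7% of all genes were called. They were Rpl39 (edgeR interaction test, adjusted p = 0.0321) and Rpl27a (adjusted p = 0.0392). Rpl39 ran from a log2 fold change of -0.14 ± 0.11 at ZT4 to 0.51 ± 0.11 at ZT12, or 0.26 ± 0.09 at ZT12 without mouse 21. Rpl27a ran from -0.21 ± 0.11 at ZT4 to 0.36 ± 0.11 at ZT12, or 0.17 ± 0.10 at ZT12 without mouse 21. Rpl3 and Rpl36a followed with adjusted p of 0.0615 and 0.0648. Without mouse 21, 10 members were called, Rpl39 and Rpl27a among them, where 22.2% of all genes were. Leaving out KO mouse 6 or 7 or WT mouse 3 of ZT4, or WT mouse 17 or 23 of ZT12, left 0 called. The share of members called was below the background with and without that mouse.

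**Figure D4:**
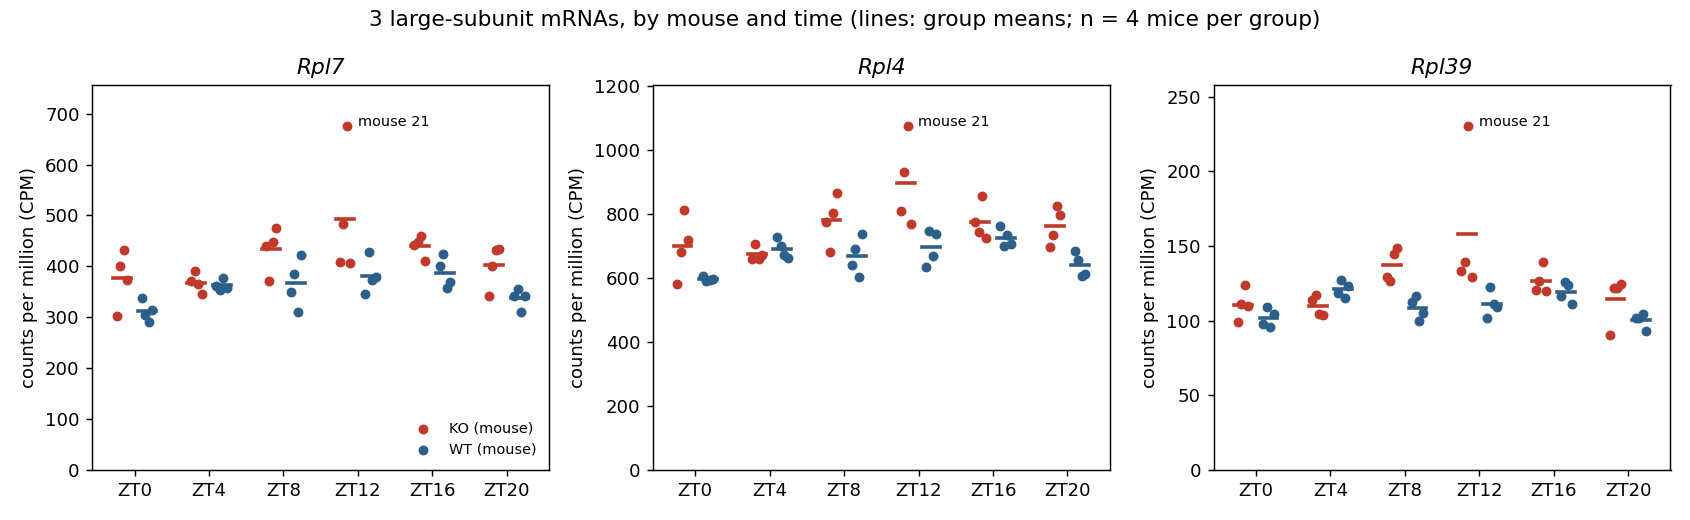
CPM of Rpl7, Rpl4 and Rpl39 (y axes from 0) by time of collection (x axis), with 1 point per mouse, KO left of WT, and lines at means of 4 mice. Mouse 21 is the highest point in each panel (676, 1074 and 230 CPM), and at ZT4 the KO and WT mice lie at similar levels.

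Both genotypes had their highest levels around the middle of the 24 h. A 24 h cosine called 17 of the 77 genes in KO, where 0.984% of all genes were called, and 40 in WT, where 48.1% were. In KO, all 77 genes had an unadjusted p under 0.05, against 21.6% of all genes. The median amplitude, the fitted distance from mean to peak on the log2 scale, was 0.19 in KO and 0.15 in WT. Fitted peaks lay from 10.9 h to 13.6 h in KO (median 12.7 h) and from 9.26 h to 13.7 h in WT (median 11.9 h). Without mouse 21 the fitted peaks in KO lay from 9.80 h to 14.4 h (median 13.0 h). By group means, all 77 genes were highest at ZT12 in KO and 74 were lowest at ZT4. Without mouse 21, 54 were highest at ZT12, 21 at ZT8 and 2 at ZT16 in KO, and 74 were still lowest at ZT4. In WT, 41 genes were highest at ZT12 and 34 at ZT16, while 75 were lowest at ZT0.

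The calls in KO depended on single mice. Without mouse 21, 0 of the 77 genes were called in KO by edgeR, where only 0.467% of all genes were, so 0 lies near the background. In that fit 45 members had an unadjusted p under 0.05, a share not counted over all genes. Their median amplitude over the 77 was 0.11. Leaving out KO mouse 6 of ZT4, 14 of ZT8 or 34 of ZT20 also left 0 called, whereas 54 were called without KO mouse 44 of ZT0. In WT, 68 members were called without mouse 21, which is no WT mouse (51.5% of all genes were then called in WT, and the cause was not tested), 22 without WT mouse 47 of ZT0 and 18 without WT mouse 19 of ZT12. Under scaling by total counts, 19 members were called in KO and 10 in WT.

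In KO the smallest p values for a rhythm included those of Rps15a, with an amplitude of 0.27 and a peak at 11.8 h (edgeR, adjusted p = 0.0336), Rpl39 at 0.25 (adjusted p = 0.0336) and Rps25 at 0.24 (adjusted p = 0.0427). Without mouse 21 none of these was called by edgeR. Rps15a then had an amplitude of 0.18 (adjusted p = 0.0547), Rpl39 0.17 (adjusted p = 0.055) and Rps25 0.17 (adjusted p = 0.117). In WT they were those of Rps14, with an amplitude of 0.26 and a peak at 10.7 h (adjusted p = 0.00114), followed by Rpl18 at 0.23 (adjusted p = 0.00264), Rpl10 at 0.18 (adjusted p = 0.00433) and Rps6 at 0.19 (adjusted p = 0.00446). Rps3a, Rpl7, Rps18, Rpl5, Rpl6 and Rpl11 were among the genes called in both genotypes with all mice, and without mouse 21 0 members were called in KO. The test of the difference between the rhythms called 0 of the 77 by edgeR, where 22.8% of all genes were called. Rpl39 alone had an unadjusted p under 0.05 (adjusted p = 0.0931), and DESeq2 also called 0.

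**Figure D5:**
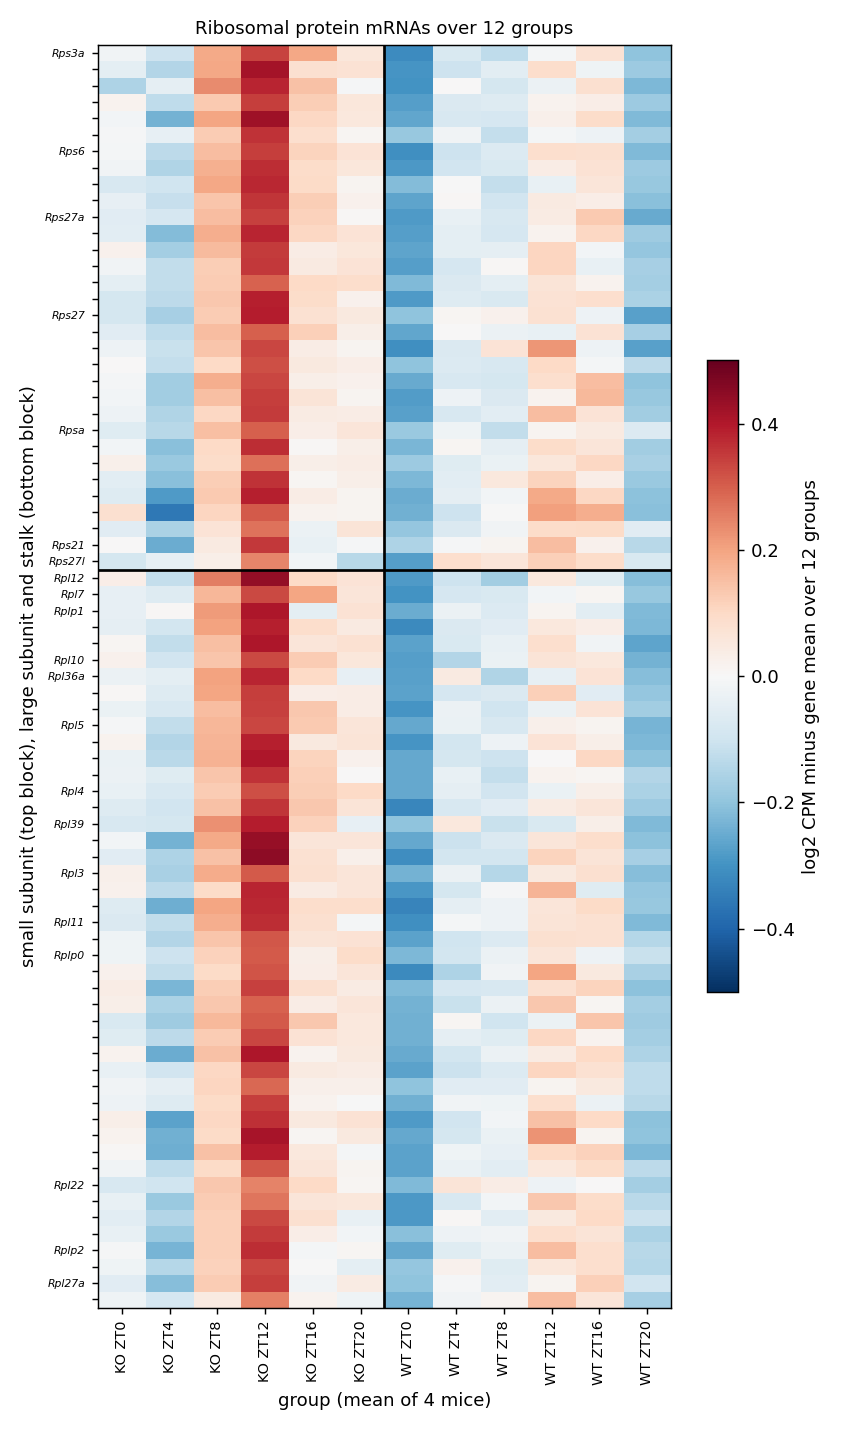
Group means of log2 CPM (4 mice each), minus the mean of the gene over 12 groups, for the 77 genes (rows, small subunit above large subunit and stalk, each ordered by average change, with some of the genes described in the text labelled) and 12 groups (columns, KO left, WT right, ZT0 to ZT20 within each). The KO ZT12 column is the highest for 77 of 77 genes among KO groups and holds mouse 21 (54 of 77 without it), and the WT ZT0 column is the lowest WT group for 75 of 77.

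Set per kilobase of transcript, the members covered a wide range of levels. The highest was Rplp1, at 1098 CPM per kb in KO and 945 CPM per kb in WT. Rpl10, Rps18, Rps2 and Rpl4 followed, between 497 and 760 CPM per kb in KO and between 435 and 661 CPM per kb in WT. The lowest was Rpl24, at 39.9 CPM per kb in KO and 36.6 CPM per kb in WT. Rps20, Rpl35, Rpl5 and Rpl37 came next, between 55.1 and 136 CPM per kb in KO and between 48.1 and 119 CPM per kb in WT. Lengths came from the shortest principal GENCODE transcript, which is 4920 bases for Rpl24 and 3706 for Rps20, far above the family median of 751, so the per-kb levels of these genes depend on that choice. Coding genes had a median of 2639 bases. Processed pseudogenes are common for this family. As many as 130 rows carry pseudogene symbols, and their counts summed to 0.296% of those of the 77 genes. How reads that match several copies were counted is not given in the sources used here, so single-gene levels are uncertain to that extent.

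The members' patterns resembled each other across groups. Over the 12 group means of log2 CPM, the genes most like Rpl7 within the family were Rps3a (Pearson r = 0.989), Rpl4 (0.982), Rpl23 (0.981), Rpl6 (0.980) and Rps7 (0.974). The median r of members with Rpl7 was 0.914 and the lowest was that of Rps27l, 0.642, while the median over other genes was -0.03. Outside the family the most alike were Eif3e (0.979), a subunit of initiation factor 3, Tpt1 (0.974), Gnb2l1 (0.973), which encodes the ribosome-bound scaffold RACK1, Eef1b2 (0.965) and D10Wsu52e (0.962). The genes share the same libraries, with mouse 21 in 1 of the 12 means, and these values are descriptions. Without mouse 21 the median r of members with Rpl7 was 0.885 and the lowest, again that of Rps27l, 0.482.

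Genes that work with the ribosome were set beside the family, again with 4.94% of all genes called higher on average and 3.92% lower. Of 20 other mRNAs known to start with a TOP sequence, 8 were called higher in KO on average and 0 lower (median 0.10). Eif3e averaged 113 ± 13.5 CPM in KO mice and 98.5 ± 8.77 CPM in WT mice (SD, n = 24 each). Naca, a chaperone at the ribosome's exit site, averaged 243 ± 41.4 CPM in KO mice and 209 ± 25.6 CPM in WT mice. Tpt1 and Gnb2l1 were also among the 8. Of 11 elongation factor genes 3 rose: Eef1a1, at 5870 ± 744 CPM in KO mice and 5084 ± 466 CPM in WT mice (SD, n = 24 each), Eef1b2 and Eef1d. Without mouse 21, where 4.51% of all genes were called higher, these counts were 6 higher and 1 lower for the TOP list and 3 for the elongation factors.

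Of 39 ribosome biogenesis genes, which make and assemble the subunits, 0 were called on average by edgeR (median 0.04, 4 at an unadjusted p under 0.05). In that list edgeR called 0 rhythmic in KO (14 at an unadjusted p under 0.05), where 0.984% of all genes were called, and 35 in WT, where 48.1% were. The difference between the rhythms was called for 27 of the 39, where 22.8% of all genes were called. Of 38 genes of growth and translation control 1 was called, Mxd1, a MYC antagonist, which was lower. Of 75 mitochondrial ribosomal protein genes, which are separate genes serving the organelle, 1 was called higher and 2 lower (median 0.02). Of 80 respiratory chain subunit genes 2 were higher and 5 lower (median -0.03). Without mouse 21, 8.37% of all genes were called in either direction. Then 2 of 81 respiratory chain genes were higher and 13 lower (median -0.06), and 0 and 2 of the 75 mitochondrial ribosomal genes. With the length trend as a covariate, 2 of 80 respiratory chain genes were higher and 32 lower (median -0.09), and 0 and 4 of the 75. The share of all genes was not counted in that fit. Among other genes of 500 to 1000 bases the median average log2 fold change was 0.04, against 0.15 for the 41 family members of that length.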

How the data were processed

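The members and lists were chosen with earlier results of these data known. Per the labels' protocols, the TruSeq kit used on poly-A liver RNA does not mark strand. CASAVA, STAR 2.4.0f1 and build mm9 are named in the submitters' processing notes. The authors deposited whole-number read counts per gene, and counter, gene models and multi-mapped reads are not given in the sources used here. Counts were tested in R 4.3.3 with edgeR 4.0.16 after filterByExpr (minimum count 10, 99.975% of counts kept) and TMM scaling (factors 0.898 to 1.14). A model with 12 group means (36 residual degrees of freedom) gave the differences and the interaction, and a 24 h cosine per genotype (42 degrees of freedom) gave the rhythms. Log2 CPM used a prior count of 2. SE came from the F statistic. Alternatives used limma 3.58.1 and DESeq2 1.42.0 among others, and code was tested on simulated data. Named genes were the 3 marker genes, members at the extremes of change, level and spread, the smallest p values of each test, the stalk and fusion proteins, and the paralogs, of which some are not reported here. Within groups, the variance between replicates was 30.3 to 171 times that of counting, so no library repeated another of its group. Pairs from different groups were not compared. Transcript lengths are from GENCODE M21 by gene ID and promoters from RefSeq by symbol. Mouse numbers give no pairs, but 11 cages held a KO and a WT mouse.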

Additional observations from a re-analysis of the deposited data

Results flagged for a closer look

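Within groups of 4 mice, 7 measures (the share of counts in the family and the CPM of Rpl7, Rpl4, Rpl39, Rpl12, Rps3a and Rps27l) were searched for a mouse far from the others, by the ratio of its gap to the whole range, against Dixon's critical value for 4 samples. Of 84 such groups 5 passed, and chance alone passes about 1 in 20. KO mouse 21 of ZT12 passed for the share of counts, with a ratio of 0.915 (2.95% against 1.84% to 1.93% in the other KO mice of ZT12), for Rpl39, with 0.900 (230 CPM against 129 to 139 CPM), and for Rpl12, with 0.839 (427 CPM against 247 to 276 CPM). KO mouse 34 of ZT20 was low for Rpl39, with 0.929 (90.3 CPM against 122 to 124 CPM). KO mouse 43 of ZT0 was high for Rps27l, with 0.935 (125 CPM against 106 to 108 CPM).

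The KO minus WT difference of Rpl39 and that of Rpl27a changed between times by the edgeR interaction test, with adjusted p of 0.0321 and 0.0392 over all genes.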

How the results depend on the processing

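The number of members called higher on average was 44 with scaling by total counts, 42 with RLE, 43 with TMM factors computed without the family, 33 with no filter, 45 with DESeq2, 39 with limma-voom and a cage block, 37 with the share of the top 20 genes as a covariate, and 0 were called lower in any setting. It was 20 with body weight as a covariate, 24 with the length trend, and 17 without the 4 farthest libraries (KO mice 20 and 21 of ZT12, 43 and 44 of ZT0). Alternatives chosen after seeing the data gave 26 (mouse 21 left out and length trend together), 38 (without ZT12) and, within the cage sets, 0, 10 and 12. The cause of these shifts was not tested, and of these settings only the cage sets had shares of all genes counted. Leaving out each of the 48 mice in turn gave 33 to 55 called on average and medians of 0.11 to 0.16. Mouse numbers are shared by no other mouse and pair none. A paired fit, added after seeing the data, took only KO and WT cage mates with the cage as a block and used fewer mice. It called 0 members in 11 cages and 0 in the 10 cages without that of mouse 21. Of all genes, 0.809% and 0.607% were called higher there.

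Counts at single times, for the interaction and for the rhythms were less stable. Without mouse 21 they were 1 (ZT0), 13 (ZT8), 0 (ZT12), 2 (ZT20), 10 (interaction), 0 (rhythm in KO), 68 (rhythm in WT) and 1 (rhythm difference). Without the 4 farthest libraries they were 19 (ZT8), 0 (ZT12), 3 (ZT20), 4 (interaction), 1 (KO) and 70 (WT). With the length trend they were 6 (ZT8), 0 (ZT12), 2 (ZT20), 0 (interaction), 0 (KO), 13 (WT) and 1 (difference). With the length trend and mouse 21 left out they were 8 (ZT8), 0 (ZT12), 2 (ZT20), 0 (interaction), 0 (KO), 13 (WT) and 1 (difference). With the share of the top 20 genes they were 7 (ZT8), 4 (ZT12), 0 (interaction) and 0 (KO). With body weight they were 1 (ZT8) and 19 (ZT12). With no filter they were 1 (ZT8), 16 (ZT12), 1 (interaction) and 2 (KO). With total counts they were 13 (ZT8), 10 (WT) and 1 (difference). DESeq2 gave 5 (ZT8), 6 (interaction) and 39 (KO), limma-voom with the cage block 5 (ZT8) and 8 (KO), and RLE 9 (KO). Settings not named here left these counts within 1.5 times.

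Leaving out 1 mouse gave 0 to 5 at ZT0, 0 to 13 at ZT8, 0 to 59 at ZT12, 0 at ZT4 and ZT16, 0 to 2 at ZT20, 0 to 10 for the interaction, 0 to 54 for the rhythm in KO, 18 to 68 for that in WT and 0 to 1 for the difference. Among these fits, shares of all genes called were counted only for the one without mouse 21. The median at ZT16 ran from -0.025 to 0.057 and changed sign without KO mouse 30 or WT mouse 32 of ZT16.

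The uncalled Rps27l changed sign under 8 settings: -0.0037 with total counts, -0.0017 with limma-voom, -0.034 without mouse 21, -0.059 without 4 libraries, -0.059 with the length trend, -0.00036 with the top 20 share, -0.019 without ZT12, and -0.053 with both the length trend and mouse 21 left out. It ran from -0.034 to 0.023 as single mice were left out. Rps21 was -0.032 without 4 libraries, -0.036 with the length trend, and -0.033 with that and mouse 21 left out. Rps28 was -0.0061 without 4 libraries and Rps16 -0.00076 with the length trend and mouse 21 left out.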
